A study of Mus musculus with 6 samples.

Results

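Semaphorins, plexins and neuropilins form the gene family described here, taken from RNA sequencing of injured mouse spinal cord. Members were the protein-coding genes of the count table named Sema with a class number of 3 to 7 and a letter of a to g (the ligands), Plxn with a letter of a to d and a number of 1 to 3, or Nrp1 or Nrp2 (the receptors). This rule found 30 of 54532 genes, 20 ligands and 10 receptors, and all 30 passed the filter on low counts, among 16909 genes tested. The rule does not take in Plxna4, which is described with the partners of the family.

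The study compared 2 groups of C57BL/6J mice, 3 libraries each. Trained mice had a spinal cord injury and rotarod training, in which a mouse keeps walking on a turning rod. Untrained mice had the injury and no rotarod training. All 6 libraries are from injured spinal cord labelled as day 28, counted from training, and no uninjured cord was analysed here. Age, sex and injury level are not in the labels. Nor do they tell if a library is 1 mouse, so that the spread behind each p-value is that between samples and may be technical. The design asks how expression in the injured cord differs with and without the training.

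Semaphorins are guidance proteins that share an extracellular sema domain and steer axons, dendrites, blood vessels and immune cells, often by repulsion. Class 3 members are secreted and mostly act through a neuropilin that binds the ligand and a plexin that carries the signal, classes 4, 5 and 6 span the membrane, and class 7 is held by a lipid anchor. Plexins act on small GTPases and on the cytoskeleton of the growth cone. In injured cord, fibroblasts of the scar are known as a source of secreted semaphorins and oligodendrocytes as a source of Sema4d.

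Total counts were 15814104 to 26092014 per trained library and 15947347 to 18081949 per untrained library, and 3 counts corresponded to 0.116 to 0.192 CPM (counts per 1000000 counts of the library, scaled by edgeR's TMM factors). All members lay far above that floor, with a lowest value of 10.4 CPM in any library (Sema3f in untrained replicate 3). Between trained and untrained cord 10 of 16909 genes (0.0591%) passed edgeR's quasi-likelihood test at a Benjamini-Hochberg adjusted p of 0.05. Markers of neurons, oligodendrocytes and astrocytes were present in every library, and no gene of these lists was at 0. Trained replicate 1 stood apart in marker levels: its summed leptomeningeal and scar fibroblast markers (10 of 10 genes in the table) were at 187 CPM, against 716 and 761 CPM in trained replicates 2 and 3 and 423 to 696 CPM in the untrained libraries. Its summed Schwann cell markers were at 462 CPM, against 1028 and 1635 CPM in the other trained libraries and 1050 to 1450 CPM in the untrained ones. Of the 14 marker lists none had a member past the edgeR test or the limma-voom test. In DESeq2 4 of 7 neutrophil markers passed, and their sum was 31.2, 65.2 and 57.0 CPM in trained and 22.6, 19.2 and 14.7 CPM in untrained replicates 1, 2 and 3. Their part in the levels of the family was not tested. In bulk tissue fewer cells of a type and less RNA per cell cannot be told apart.

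None of the 30 members passed the test, neither any of the 20 ligands nor any of the 10 receptors, with adjusted p-values of 0.209 to 0.990 in edgeR, and 0 of 30 passed in DESeq2 or limma-voom. The smallest p-values belonged to Nrp2, a neuropilin that binds secreted semaphorins and vascular growth factors, to Sema3c, a secreted semaphorin that binds neuropilins, and to Plxnd1, a plexin best known from blood vessels. All 3 lay below the untrained libraries in every trained library. At an unadjusted edgeR p under 0.05 there were 9 of 30 members, 3 with positive and 6 with negative log2 fold changes (trained over untrained). Of all genes tested 10.0% had such a p, 4.47% with positive and 5.55% with negative changes. That count was 3 without untrained replicate 2 and 5 without untrained replicate 3, where 8.36% and 7.24% of all genes had such a p. Without trained replicate 1, the library poor in fibroblast markers, it was 6 (8.22% of all genes). In DESeq2 it was 4, where 4.28% of 30350 genes had such a p. Those genes were not filtered on low counts, so that share is not on the same footing as the others. The median SE was 0.095 for members and 0.122 over all genes tested in edgeR. A difference of a given size thus tends to give a smaller p in members. This limit holds for each comparison of members with the share of all genes. The groups did not overlap in 6 of 30 members (20.0%), against 16.8% of all genes tested. Trained libraries were the higher ones in 2 of the 6 (8.13% of all genes) and the lower ones in 4 (8.69% of all genes). Log2 fold changes were positive in 13 members and negative in 17, where 48.0% of all genes tested had positive and 52.0% negative ones. Ligands had a median log2 fold change of 0.05 and receptors one of -0.07, beside -0.0080 over all genes. Without untrained replicate 1 the median of the receptors was 0.01.

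Nrp2, Sema3c and Plxnd1 are shown with the bases just before their start sites, since they are the members of smallest p. The sequences are those of RefSeq on GRCm38.p6, 250 bases each, 5′ to 3′ on the strand of the gene, and capitals mark the GC box GGGCGG or its complement. The Nrp2 stretch is chr1:62703067-62703316 on the plus strand, that of Sema3c chr5:17574566-17574815 on the plus strand, and that of Plxnd1 chr6:115995006-115995255 on the minus strand. The RefSeq start of Sema3c lies 535 bases downstream of the 5′ end that the count table gives. The Sema3c stretch thus lies inside the gene as counted, and it precedes the RefSeq start only. For Nrp2 the RefSeq start lies 32 bases downstream of the 5′ end in the count table.
Nrp2: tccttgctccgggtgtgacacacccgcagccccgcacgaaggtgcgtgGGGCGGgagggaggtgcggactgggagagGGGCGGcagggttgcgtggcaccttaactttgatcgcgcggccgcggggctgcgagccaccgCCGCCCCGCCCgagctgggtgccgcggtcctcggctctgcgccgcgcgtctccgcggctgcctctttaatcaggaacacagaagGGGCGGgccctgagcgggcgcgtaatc
Sema3c: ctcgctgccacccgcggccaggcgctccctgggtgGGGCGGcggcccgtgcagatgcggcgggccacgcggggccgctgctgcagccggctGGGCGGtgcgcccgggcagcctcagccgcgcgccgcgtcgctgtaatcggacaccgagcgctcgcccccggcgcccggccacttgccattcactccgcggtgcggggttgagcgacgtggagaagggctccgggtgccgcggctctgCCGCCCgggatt
Plxnd1: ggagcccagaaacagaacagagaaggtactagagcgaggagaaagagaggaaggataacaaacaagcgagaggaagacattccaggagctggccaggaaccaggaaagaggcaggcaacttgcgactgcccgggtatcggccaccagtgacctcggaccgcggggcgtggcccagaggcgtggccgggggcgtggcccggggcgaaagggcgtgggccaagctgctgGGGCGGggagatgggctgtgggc

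These stretches were rich in G and C, at 72.4% for Nrp2, 78.4% for Sema3c and 64.8% for Plxnd1, where the median over all 32851 RefSeq windows of this length was 52.4%. The GC box, read on both strands, matched 5 times in Nrp2, 3 times in Sema3c and once in Plxnd1, and at least once in 32.7% of all windows. RefSeq windows were found for 26 of the 30 members, 37 windows in all, and 27 of these (73.0%) held a GC box. The member windows were also richer in G and C, with a median of 64.0% against 52.4% for all windows. The part of this in the shares of the motifs was not tested. The CCAAT box CCAAT was in 7 of 37 member windows (18.9%) and 33.8% of all windows, the TATA box TATAAA in 0 of 37 and 12.4%, and the ETS core CCGGAA in 4 of 37 (10.8%) and 12.03%. None of the last 3 motifs matched in the stretches shown. A match describes letters and is not evidence of binding.

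Levels were compared between genes per length of the gene model (RPKM, CPM per 1000 bases). Among the ligands Sema7a, the lipid-anchored semaphorin that binds plexin C1 and integrins, was highest, at 49.8 ± 4.73 RPKM in trained and 56.0 ± 5.07 RPKM in untrained cord (SD, n = 3 each). Sema4d, the transmembrane ligand of plexin B1, was next at 35.0 ± 3.11 RPKM in trained and 31.4 ± 0.727 RPKM in untrained cord. Sema6b, a transmembrane ligand of A plexins, followed at 23.6 ± 1.42 RPKM in trained and 20.9 ± 0.721 RPKM in untrained cord, and Sema6d, a ligand of plexin A1, at 15.1 ± 1.18 RPKM in trained and 15.5 ± 1.32 RPKM in untrained cord. The 6 library values of each of the first 3 lay apart from those of the next gene in the order. Of all 19 steps between neighbours in the order of ligands 14 overlapped, so most of the order further down is not resolved. Sema3b, Sema6a, Sema4f, Sema3c, Sema4a, Sema4c and Sema4g had means over all libraries of 11.8, 8.19, 7.82, 7.81, 6.81, 6.40 and 5.48 RPKM. Sema5a, Sema6c, Sema3g, Sema4b, Sema3f and Sema5b lay between 4.91 and 2.40 RPKM. The lowest were Sema3d, Sema3a, a classical repellent of sensory axons, and Sema3e, a direct ligand of plexin D1, at 1.94, 1.68 and 1.27 RPKM. The level of Sema4g depends on a length of 4872 bases in the table, where the exons of the GENCODE M21 model cover 8661 bases.

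Among the receptors the B plexins were highest, Plxnb1 at 15.6 ± 1.36 RPKM in trained and 16.004 ± 0.763 RPKM in untrained cord, Plxnb2 at 14.0 ± 2.43 RPKM in trained and 14.96 ± 1.85 RPKM in untrained cord and Plxnb3 at 12.2 ± 0.817 RPKM in trained and 13.1 ± 1.09 RPKM in untrained cord. Their library values overlapped from one to the next, and Plxna1 lay below them at a mean of 8.45 RPKM over all libraries. Nrp2 followed at 4.97 RPKM, Plxna2 at 4.26, Plxnd1 at 3.73, Nrp1 at 3.33, Plxna3 at 2.94 and Plxnc1 at 2.42 RPKM, with overlapping neighbours throughout. Plexin C1 and plexin D1, the receptors of Sema7a and Sema3e, were thus among the lower receptors, while Sema7a was the highest ligand and Sema3e the lowest.

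**Figure D1:**
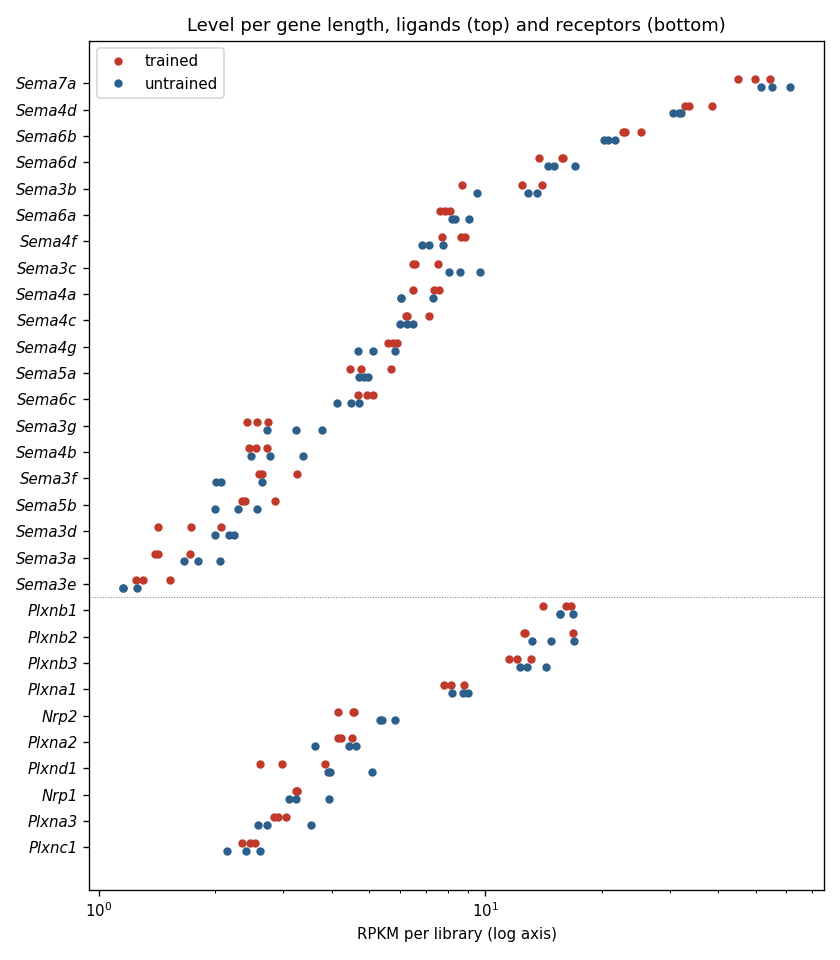
Level of each member per gene length in RPKM (log axis), with 1 point for each of the 3 trained (red) and 3 untrained (blue) libraries, ligands above the dotted line and receptors below it. Sema7a, Sema4d and Sema6b stand clear of the other ligands, and the 3 B plexins and Plxna1 clear of the other receptors.

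Secreted class 3 ligands held 5 of the 7 ligands with an unadjusted p under 0.05, 4 with negative and 1 with a positive log2 fold change, out of 7 class members tested, where 10.0% of all genes had such a p. Over all ligands the count was 1 without untrained replicate 2, 3 without untrained replicate 3, 4 without trained replicate 1 and also 4 without trained replicate 2, and 2 in DESeq2. Of class 3 alone it was 1 without untrained replicate 2, 2 without untrained replicate 3 and also 2 without trained replicate 3, 3 without each of the other libraries, and 1 in DESeq2. The share of all genes with such a p moved too. It was 8.36% without untrained replicate 2, 7.24% without untrained replicate 3, 8.22% without trained replicate 1 and 7.84% without trained replicate 2. It was 14.6% without trained replicate 3, 8.27% without untrained replicate 1 and 4.28% in DESeq2, the last over genes not filtered on low counts. Sema3c (ENSMUSG00000028780, chromosome 5, bases 17574281 to 17730268) had 46.9, 53.7 and 46.4 CPM in trained replicates 1, 2 and 3, against 69.0, 61.3 and 57.4 CPM in untrained replicates 1, 2 and 3. All 3 trained libraries were below all 3 untrained ones. Its means were 49.0 ± 4.09 CPM with training and 62.5 ± 5.91 CPM without it (SD, n = 3 each), a log2 fold change of -0.36 ± 0.09 (SE; unadjusted p = 0.00152, adjusted p = 0.223 in edgeR). Sema3g, a ligand of neuropilin-2 known from arterial endothelium, had 11.00, 12.4 and 11.7 CPM in trained replicates 1, 2 and 3, against 14.7, 17.1 and 12.3 CPM in untrained replicates 1, 2 and 3. Trained replicate 2 and untrained replicate 3 met, so the groups overlapped narrowly, and the log2 fold change was -0.33 ± 0.14 (SE; unadjusted p = 0.0333, adjusted p = 0.459 in edgeR). Without untrained replicate 2 that of Sema3g was -0.21.

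Sema3d, a neuropilin-1 ligand, had 12.2, 17.8 and 14.9 CPM in trained replicates 1, 2 and 3, against 18.7, 19.2 and 17.1 CPM in untrained replicates 1, 2 and 3. The groups overlapped, with trained replicate 1 lowest, and the log2 fold change was -0.30 ± 0.14 (SE; unadjusted p = 0.0496, adjusted p = 0.497 in edgeR). Without trained replicate 1 it was -0.17 for Sema3d. Sema3a, which binds neuropilin-1, had 23.9, 19.4 and 19.7 CPM in trained replicates 1, 2 and 3, against 23.0, 25.0 and 28.6 CPM in untrained replicates 1, 2 and 3. Trained replicate 1 lay within the untrained range and the other 2 trained libraries below it, for a log2 fold change of -0.27 ± 0.12 (SE; unadjusted p = 0.0349, adjusted p = 0.462 in edgeR). Without trained replicate 1 it was -0.38 for Sema3a.

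Sema3f (ENSMUSG00000034684, chromosome 9, bases 107681500 to 107710475), a ligand of neuropilin-2, lay on the other side, with 13.7, 16.9 and 13.5 CPM in trained replicates 1, 2 and 3, against 13.7, 10.8 and 10.4 CPM in untrained replicates 1, 2 and 3. Trained replicate 2 was the highest library, and untrained replicate 1 met the other trained ones. The log2 fold change of Sema3f was 0.33 ± 0.15 (SE; unadjusted p = 0.0413, adjusted p = 0.481 in edgeR), and 0.22 without trained replicate 2. Sema3e had 12.6 ± 1.36 CPM with training and 11.03 ± 0.54 CPM without it, a log2 fold change of 0.19 with overlapping groups. Sema3b, a secreted semaphorin of wide expression, had the largest SE of the family, with 41.4, 66.9 and 59.3 CPM in trained replicates 1, 2 and 3, against 64.7, 61.5 and 45.3 CPM in untrained replicates 1, 2 and 3. Its lowest library was trained replicate 1, the one lowest in fibroblast and Schwann cell markers, and the part of these markers in its level was not tested. The log2 fold change of Sema3b was -0.04 ± 0.23 (SE), and 0.14 without trained replicate 1.

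Of the 6 transmembrane class 4 ligands 5 had positive log2 fold changes, beside 48.0% of all genes tested. An unadjusted p under 0.05 was found in 10.0% of all genes and in 1 class 4 member. That member was Sema4f, a transmembrane semaphorin that binds a postsynaptic scaffold protein, with 45.7, 46.7 and 40.8 CPM in trained replicates 1, 2 and 3, against 37.7, 36.2 and 41.1 CPM in untrained replicates 1, 2 and 3. Trained replicate 3 lay just within the untrained range, and the log2 fold change was 0.21 ± 0.08 (SE; unadjusted p = 0.0272, adjusted p = 0.434 in edgeR). Sema4d (ENSMUSG00000021451, chromosome 13, bases 51685529 to 51793747) had 296, 252 and 258 CPM in trained replicates 1, 2 and 3, against 235, 246 and 244 CPM in untrained replicates 1, 2 and 3. Every trained library was above every untrained one, with trained replicate 1 highest, and the log2 fold change was 0.15 ± 0.08 (SE; unadjusted p = 0.0708, adjusted p = 0.530 in edgeR). Without trained replicate 1 that of Sema4d was 0.08. The summed oligodendrocyte markers (10 of 10 genes in the table, none at 0) were 38465 to 43223 CPM in trained and 34077 to 39269 CPM in untrained libraries, also highest in trained replicate 1, and their part in the level of Sema4d was not tested.

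The other class 4 ligands overlapped between the groups. Sema4a, which acts on immune cells, was at 38.6 ± 3.16 CPM with training and 35.0 ± 3.93 CPM without it. Sema4g and Sema4c, both ligands of plexin B2, were at 28.0 ± 0.691 CPM with training and 25.4 ± 2.84 CPM without it, and at 30.1 ± 2.39 CPM with training and 28.7 ± 1.14 CPM without it. The gene D430040D24Rik overlaps Sema4c and held 14.8% as many counts, so the 2 cannot be told apart in full. Sema4b was at 14.5 ± 0.76 CPM with training and 16.2 ± 2.57 CPM without it, the class 4 member with a negative log2 fold change (-0.16, and -0.03 without untrained replicate 2).

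Class 5 semaphorins carry thrombospondin repeats beside the sema domain. Sema5a was at 93.1 ± 11.97 CPM with training and 90.5 ± 2.61 CPM without it, and trained replicate 2 was its highest library. Sema5b was at 17.9 ± 2.002 CPM with training and 16.2 ± 1.98 CPM without it. Neither had an unadjusted p under 0.05, and the groups overlapped in both.

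Among the 4 class 6 ligands Sema6b (ENSMUSG00000001227, chromosome 17, bases 56123085 to 56140343) had 100.1, 89.9 and 90.9 CPM in trained replicates 1, 2 and 3, against 85.8, 82.4 and 80.1 CPM in untrained replicates 1, 2 and 3. All trained libraries were above all untrained ones, and the log2 fold change was 0.18 ± 0.07 (SE; unadjusted p = 0.0261, adjusted p = 0.430 in edgeR). Sema6a, which binds plexins A2 and A4, had 70.9, 68.9 and 67.1 CPM in trained replicates 1, 2 and 3, against 71.9, 73.4 and 79.4 CPM in untrained replicates 1, 2 and 3. All trained libraries of Sema6a were below all untrained ones by a small step, with a log2 fold change of -0.12 ± 0.07 (SE; unadjusted p = 0.116, adjusted p = 0.596 in edgeR). Sema6c and Sema6d overlapped between the groups, at 29.2 ± 1.28 CPM with training and 26.4 ± 1.76 CPM without it, and at 159.9 ± 12.4 CPM with training and 164 ± 14.0 CPM without it. Sema7a had 179.9, 165 and 149 CPM in trained replicates 1, 2 and 3, against 169.8, 203 and 181 CPM in untrained replicates 1, 2 and 3. Untrained replicate 1 lay within the trained range, and the log2 fold change of Sema7a was -0.17 ± 0.09 (SE; unadjusted p = 0.0828, adjusted p = 0.546 in edgeR). It was -0.08 without trained replicate 3 and -0.09 without untrained replicate 2.

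**Figure D2:**
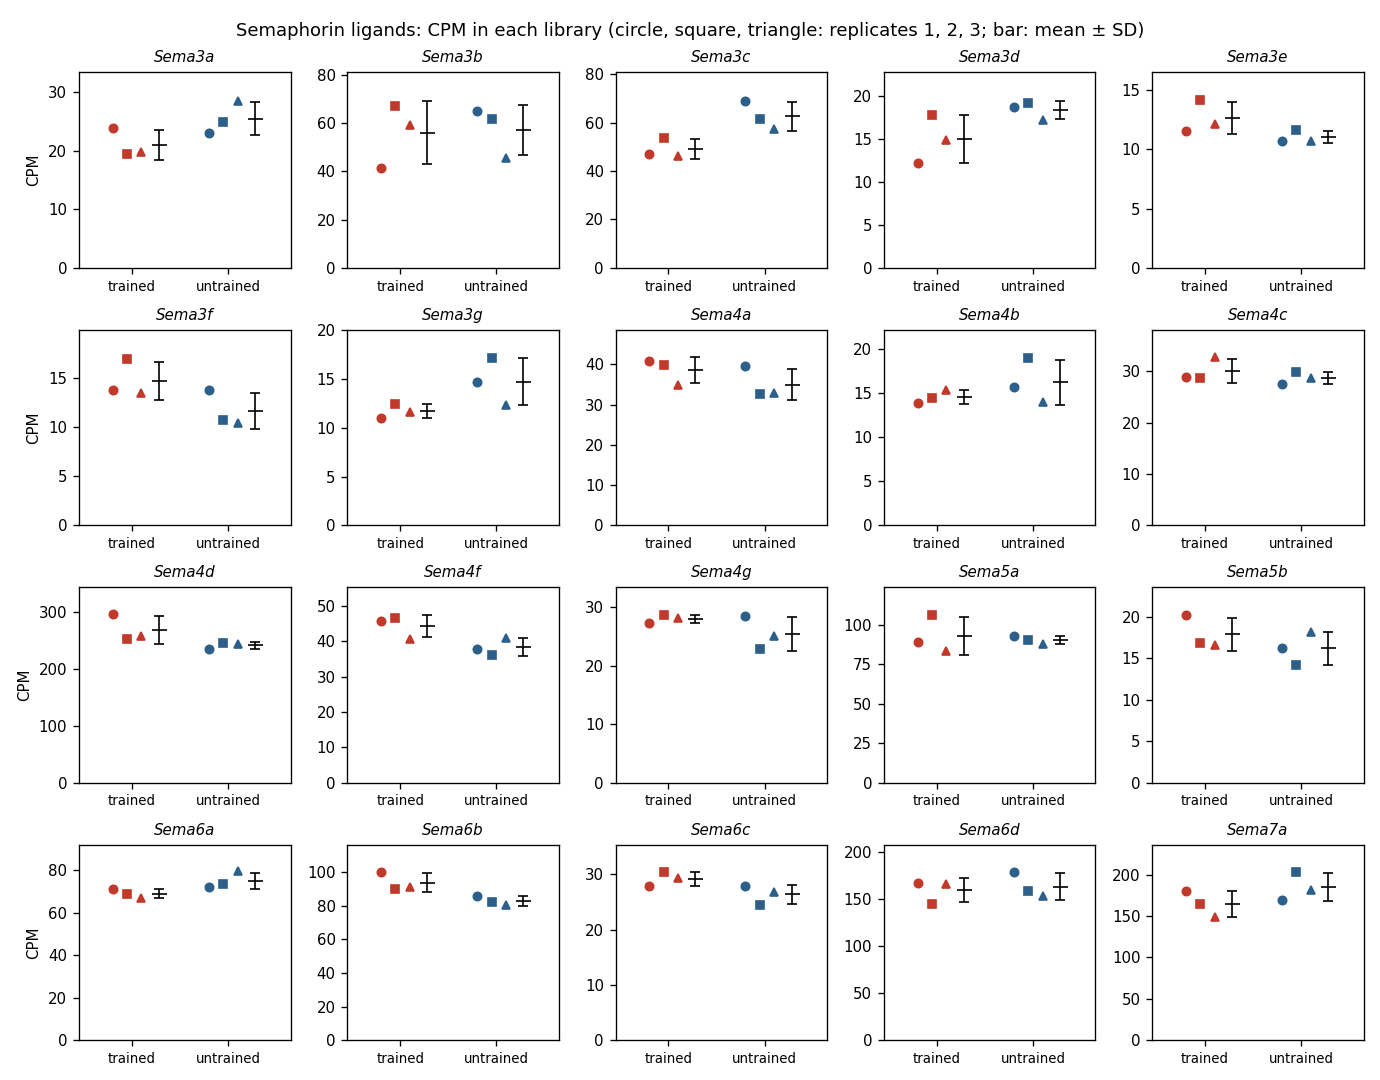
CPM of the 20 semaphorin ligands in each trained (red, left) and untrained (blue, right) library, each axis from 0, with the mean ± SD of the 3 libraries beside the points. The groups do not overlap in Sema3c and Sema6a (trained below) and in Sema4d and Sema6b (trained above), and no ligand passed the test.

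Of the 10 receptors 8 had negative log2 fold changes, beside 52.0% of all genes tested. An unadjusted p under 0.05 was found in 2 of the 10, Nrp2 and Plxnd1, and in 10.0% of all genes. The number of receptors with negative changes rested on single libraries: it was 4 of 10 without untrained replicate 1 and 10 of 10 without untrained replicate 3. Nrp2 (ENSMUSG00000025969, chromosome 1, bases 62703285 to 62818695) had 54.2, 53.8 and 49.2 CPM in trained replicates 1, 2 and 3, against 69.2, 63.8 and 63.3 CPM in untrained replicates 1, 2 and 3. The gap between the groups was wider than the SD within either, and the means were 52.4 ± 2.81 CPM with training and 65.4 ± 3.23 CPM without it (SD, n = 3 each). Its log2 fold change was -0.32 ± 0.07 (SE; unadjusted p = 0.000900, adjusted p = 0.209 in edgeR). Nrp1, the other neuropilin and the receptor of Sema3a, had 31.8, 31.6 and 31.8 CPM in trained replicates 1, 2 and 3, against 38.5, 31.7 and 30.3 CPM in untrained replicates 1, 2 and 3. Untrained replicate 1 was apart from the rest, which lay close together, and the log2 fold change of Nrp1 was -0.08 ± 0.10 (SE), or 0.04 without untrained replicate 1.

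Plxnd1 (ENSMUSG00000030123, chromosome 6, bases 115954811 to 115995005) had 19.1, 21.7 and 28.0 CPM in trained replicates 1, 2 and 3, against 37.1, 28.9 and 28.6 CPM in untrained replicates 1, 2 and 3. The groups came close, between trained replicate 3 and untrained replicate 3, and the log2 fold change was -0.47 ± 0.15 (SE; unadjusted p = 0.0127, adjusted p = 0.372 in edgeR), the largest in size of the family. Plxnd1 passed the test without trained replicate 3 (log2 fold change -0.61, edgeR adjusted p = 0.0327), and its log2 fold change was -0.32 without untrained replicate 1 (edgeR adjusted p = 0.583). With no filter on low counts Plxnd1, Nrp2 and Sema3c passed (edgeR adjusted p = 0.00435, 0.0340 and 0.0118). The filter removes genes, none of them of the family, and all genes called numbered 276 there.

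The summed endothelial markers, like Plxnd1 and Nrp2, were highest in untrained replicate 1. That library was the highest in 9 of 10 receptors, while Sema3g was highest in untrained replicate 2. Summed over 8 of 8 listed genes, none at 0, they were 394, 463 and 418 CPM in trained replicates 1, 2 and 3, against 567, 478 and 455 CPM in untrained replicates 1, 2 and 3. All 8 had negative log2 fold changes, beside 52.0% of all genes tested, with a median of -0.18. This was not particular to endothelium. All tested markers were also negative for microglia and macrophages (10, median -0.16), motor neurons (6, median -0.22), sensory ganglion neurons (7, median -1.29) and T cells (4, median -0.67). All were positive for neutrophils (7) and red blood cells (5). Of the 8 endothelial markers, 3 had an unadjusted p under 0.05, beside 10.0% of all genes. None of the 8 passed the test over all genes in edgeR, DESeq2 or limma-voom. Pecam1, an adhesion molecule of endothelium, had a log2 fold change of -0.39 ± 0.11 (SE; edgeR adjusted p = 0.268), and Kdr, the main receptor of vascular endothelial growth factor, one of -0.07 ± 0.12 (SE). The part of endothelial content in the levels of Plxnd1, Nrp2 and Sema3g was not tested.

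A plexins, which pair with neuropilins for class 3 ligands, overlapped between the groups. Plxna1 was at 74.7 ± 4.67 CPM with training and 78.4 ± 3.85 CPM without it, Plxna2 at 73.8 ± 3.20 CPM with training and 72.7 ± 9.08 CPM without it, and Plxna3 at 23.1 ± 0.814 CPM with training and 23.2 ± 3.998 CPM without it. The 3 B plexins, receptors of class 4 ligands, had negative log2 fold changes of -0.04 to -0.10 and overlapping groups, and without untrained replicate 1 Plxnb1 and Plxnb2 were both at 0.01. Plxnb1 had 159, 135 and 155 CPM in trained replicates 1, 2 and 3, against 162, 149 and 149 CPM in untrained replicates 1, 2 and 3. Trained replicate 2 was its lowest library, and the log2 fold change was -0.04 ± 0.08 (SE; unadjusted p = 0.643, adjusted p = 0.912 in edgeR). Plxnb2 had 97.2, 97.9 and 130.0 CPM in trained replicates 1, 2 and 3, against 130.5, 102 and 114 CPM in untrained replicates 1, 2 and 3. Trained replicate 3 and untrained replicate 1 were both high, and the log2 fold change of Plxnb2 was -0.09 ± 0.13 (SE; unadjusted p = 0.501, adjusted p = 0.858 in edgeR). The summed microglia and macrophage markers (10 of 10 genes, none at 0) were highest in the same libraries, at 1608 CPM in trained replicate 3 and 1536 CPM in untrained replicate 1, against 1030 and 1107 CPM in the other trained and 1331 and 1384 CPM in the other untrained libraries. Their part in the level of Plxnb2 was not tested.

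Plxnb3, known from oligodendrocytes, had 85.1, 74.7 and 78.3 CPM in trained replicates 1, 2 and 3, against 82.9, 79.7 and 93.2 CPM in untrained replicates 1, 2 and 3. The groups overlapped, and the log2 fold change of Plxnb3 was -0.10 ± 0.08 (SE; unadjusted p = 0.227, adjusted p = 0.710 in edgeR), and -0.03 without untrained replicate 3. Plxnc1, the receptor of Sema7a, was at 20.4 ± 0.785 CPM with training and 19.9 ± 1.92 CPM without it. Untrained replicate 1 was the highest of the 6 libraries in 9 of 10 receptors, and in 2 of 20 ligands.

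**Figure D3:**
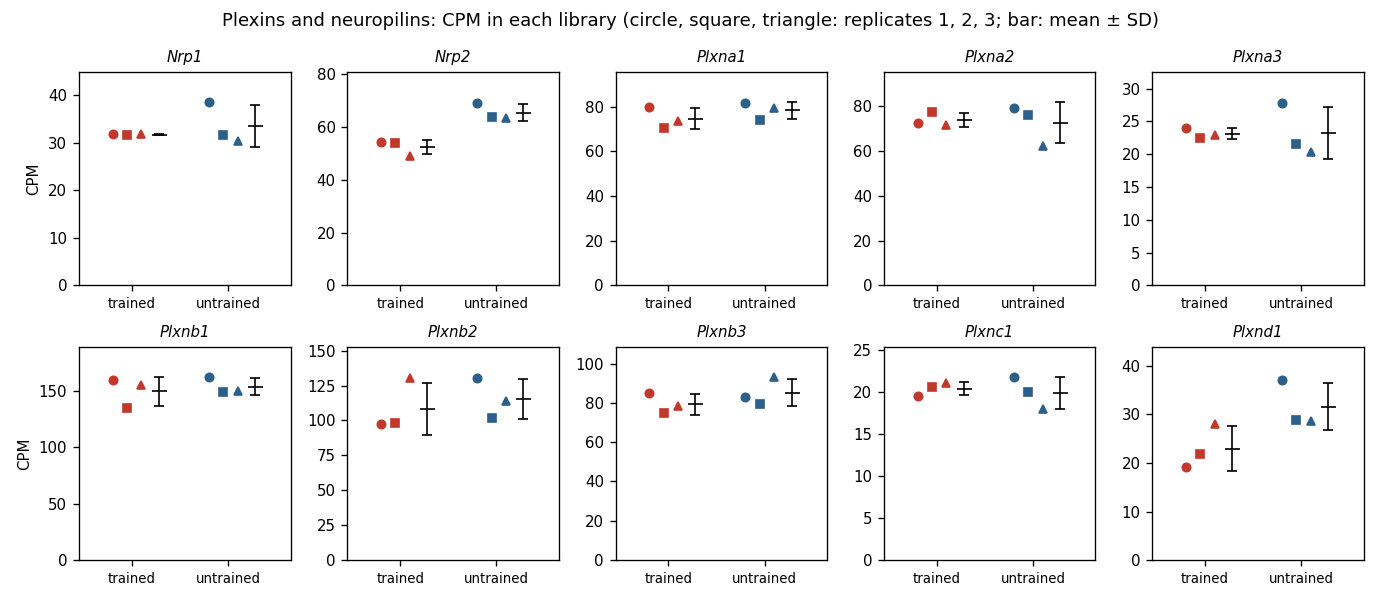
CPM of the 8 plexins and 2 neuropilins in each trained (red, left) and untrained (blue, right) library, each axis from 0, with the mean ± SD of the 3 libraries beside the points. The groups lie apart in Nrp2 and Plxnd1, with trained libraries lower, and untrained replicate 1 (blue circle) is often the highest point.

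**Figure D4:**
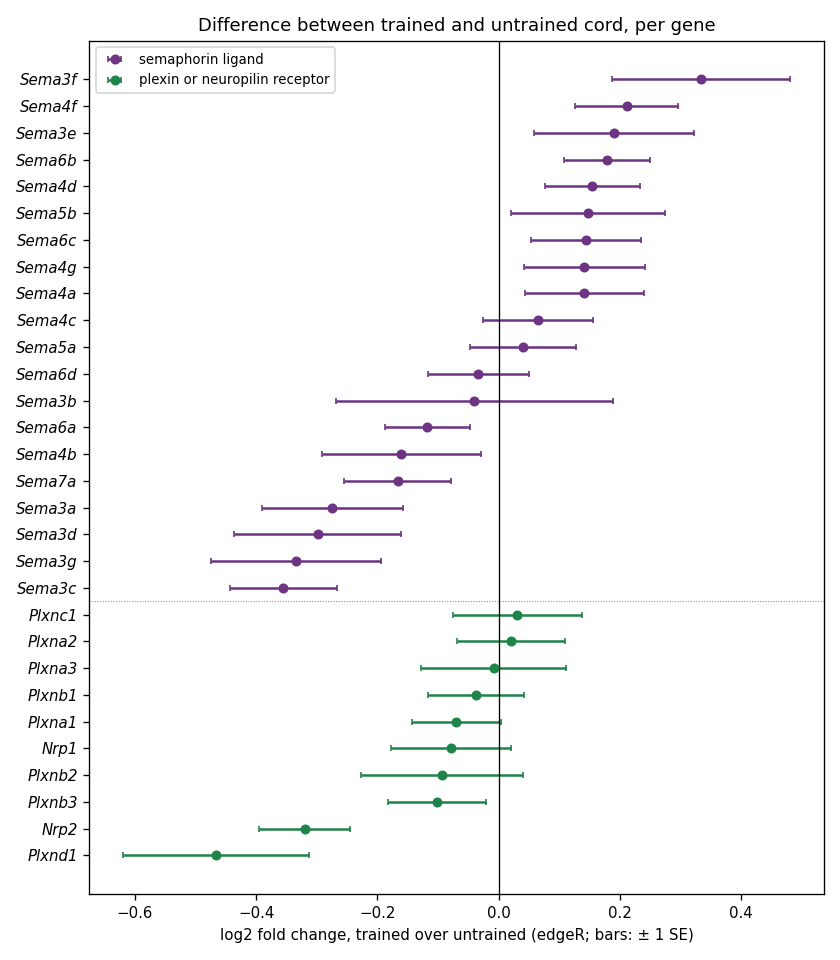
Log2 fold change (trained over untrained) of each member with ± 1 SE from edgeR, ligands above the dotted line and receptors below it. Ligands run from -0.36 (Sema3c) to 0.33 (Sema3f), and receptors from -0.47 (Plxnd1) to 0.03 (Plxnc1).

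The plot of the 9 members of unadjusted p under 0.05 by library sets them beside the marker lists. Plxnd1, Sema3d and Sema3g were lowest in trained replicate 1, where fibroblast, Schwann cell, microglia and endothelial markers were lowest too, and the part of these markers was not tested. Nrp2, Sema3c and Sema3g were below the mean of all libraries in each trained library. Without trained replicate 1 the log2 fold change was -0.35 for Nrp2, -0.32 for Sema3c, -0.35 for Plxnd1, -0.29 for Sema3g and -0.17 for Sema3d. Over the fits that leave out 1 library, Nrp2 was smallest in size without trained replicate 3, at -0.26. Sema3c and Plxnd1 were smallest in size without untrained replicate 1, at -0.27 and -0.32.

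**Figure D5:**
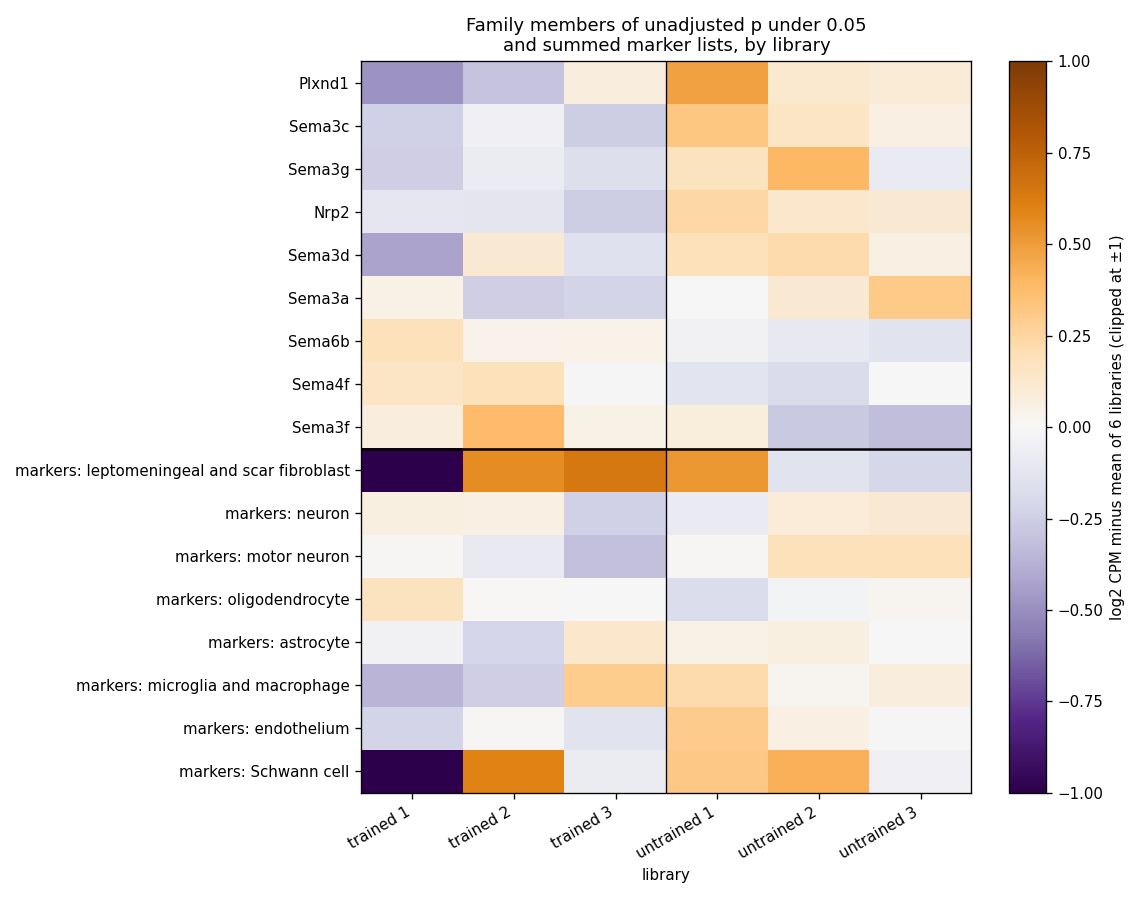
Log2 CPM of the 9 members of unadjusted p under 0.05 (above the line) and of 8 summed marker lists (below it) in each library, as the difference from the mean of the 6 libraries, with colours clipped at ±1. Nrp2, Sema3c and Sema3g are below their mean (violet) in all trained libraries, and the fibroblast, Schwann cell, microglia and endothelial lists are lowest in trained replicate 1.

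In the lists of partners and effectors 0 genes passed in edgeR, DESeq2 or limma-voom. None of the 12 co-receptors and adhesion partners of plexins and neuropilins passed the test, with a median log2 fold change of -0.10. An unadjusted p under 0.05 was found in 3 of the 12 (25.0%), beside 10.0% of all genes tested. Gipc1, a scaffold that binds the tail of neuropilin-1, was at 55.3 ± 3.30 CPM with training and 47.1 ± 1.48 CPM without it (edgeR unadjusted p = 0.00835, adjusted p = 0.334). Mst1r, a receptor kinase that can associate with B plexins, was at 1.73 ± 0.0674 CPM with training and 0.956 ± 0.276 CPM without it (edgeR unadjusted p = 0.0233, adjusted p = 0.426). Plxna4, the remaining A plexin and a receptor of Sema3a and Sema6a, was at 62.9 ± 3.99 CPM with training and 68.0 ± 4.09 CPM without it, with overlapping groups.

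Of 6 genes listed as other receptors of semaphorins, Havcr2 among them as a relative of such a receptor, 5 were tested. Of these 5, 2 (40.0%) had an unadjusted p under 0.05, beside 10.0% of all genes, and the median log2 fold change was -0.26. Timd2, a receptor of Sema4a in the mouse, had 0 counts in all libraries. Itgb1, the integrin subunit that binds Sema7a, had 127, 149.9 and 156 CPM in trained replicates 1, 2 and 3, against 176, 172 and 168 CPM in untrained replicates 1, 2 and 3. The trained libraries of Itgb1 were all lower, with a log2 fold change of -0.26 ± 0.08 (SE; edgeR unadjusted p = 0.00879, adjusted p = 0.340). Havcr2, a checkpoint receptor related to Timd2, was at 9.32 ± 1.44 CPM with training and 12.7 ± 1.48 CPM without it (edgeR unadjusted p = 0.0109, adjusted p = 0.362).

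Inside the cell, 0 of 28 effectors of plexins passed, with a median log2 fold change of -0.03. An unadjusted p under 0.05 was found in 3 of the 28 (10.7%), near the 10.0% of all genes. Gsk3b, a kinase that acts on collapsin response mediators, was at 177 ± 11.3 CPM with training and 201 ± 9.09 CPM without it (edgeR unadjusted p = 0.0260, adjusted p = 0.430). Arhgef11, which B plexins bind, was at 78.4 ± 11.03 CPM with training and 93.4 ± 7.31 CPM without it (edgeR unadjusted p = 0.0302, adjusted p = 0.445). Among 10 collapsin response mediators and MICAL oxidases 0 passed, and 1 had an unadjusted p under 0.05 (10.0%, as over all genes). Their median log2 fold change was 0.03. The smallest p belonged to Dpysl5, at 66.9 ± 10.03 CPM with training and 57.0 ± 0.356 CPM without it (edgeR unadjusted p = 0.0296, adjusted p = 0.445). Crmp1, a mediator of the Sema3a response, was at 88.6 ± 2.25 CPM with training and 81.0 ± 2.58 CPM without it (edgeR unadjusted p = 0.0712, adjusted p = 0.531).

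Vascular endothelial growth factors share the neuropilins as receptors with class 3 semaphorins. Of 8 listed factors and receptors 7 were tested, with a median log2 fold change of -0.07. An unadjusted p under 0.05 was found in 1 of the 7 (14.3%), beside 10.0% of all genes. Flt1, a receptor of vascular endothelial growth factor, had 111, 121 and 103 CPM in trained replicates 1, 2 and 3, against 168, 127 and 137 CPM in untrained replicates 1, 2 and 3. All trained libraries of Flt1 were below all untrained ones (log2 fold change -0.36 ± 0.10, SE; edgeR unadjusted p = 0.00458, adjusted p = 0.294). Flt1 is also on the endothelial list above. Flt4, the receptor of lymphatic vessels, was at 7.10 ± 0.764 CPM with training and 8.80 ± 1.99 CPM without it (edgeR unadjusted p = 0.115, adjusted p = 0.596).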

How the data were processed

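RNA-seq counts of spinal cord were used (TRIzol extraction, paired-end NovaSeq reads of 150 bp, per the labels' protocols). The table the authors deposited holds raw read counts by Ensembl gene, with names, coordinates and lengths. Bowtie 0.12.2 is named in the submitters' processing notes, as are mm8 and mm9, without roles. How reads were counted, and whether by strand, is not given in the sources used here. Of 54409 gene IDs found in GENCODE M21 (GRCm38) 98.3% had the same chromosome, start and end, as had all 30 members. Other genes overlap 17 members, and beyond Sema4c none of them held more than 1.33% as many counts as the member.

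Counts were fitted in edgeR 4.0.16 under R 4.3.3 (TMM scaling and filterByExpr, robust quasi-likelihood, group as the only term), and p-values were adjusted over all 16909 genes tested. The biological coefficient of variation was 0.122. An SE is the log2 fold change over the square root of F. Libraries of a group differed beyond sampling noise (chi-square per degree of freedom 5.14 to 16.6). Simulated data with known changes were used to test the fit. Alternatives were other scalings, filters and tools (DESeq2 1.42.0, limma 3.58.1 voom), a replicate block and leaving out each library. Members and lists were chosen with earlier results of these data known. All members are named, with full statistics for those of unadjusted p under 0.05 and the 3 highest per role, and from each other list the 2 of smallest p. Plxna4, Pecam1 and Kdr, and the per-library values of Sema3b, Sema6a and Nrp1, were added after their values were seen.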

Additional observations from a re-analysis of the deposited data

How the results depend on the processing

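The count of genes past the test over the whole table was 10, but 92 in DESeq2, 276 with no filter on low counts, 5 with the replicate block, and 4 to 221 when each library was left out, the highest without trained replicate 3. Of the ligands 0 passed in all alternatives but the fit with no filter, where 1 did. Of the receptors 0 passed except 2 with no filter and, over the fits that leave out 1 library, 0 to 1. In all other fits the smallest adjusted p of a member was 0.122. All 9 members of unadjusted p under 0.05 kept their direction in all 14 alternatives. Another 12 members did so too, and 9 changed direction, none of them above 0.0938 in size of log2 fold change. Plxna3 was at 0.016 with upper-quartile scaling, 0.0022 in limma-voom, 0.000057 with no filter and 0.0013 with the replicate block. When each library was left out, log2 fold changes ran from -0.19 to 0.14 for Sema3b, -0.079 to 0.047 for Sema6d, -0.065 to 0.13 for Sema5a, -0.086 to 0.032 for Plxnb1, -0.22 to 0.011 for Plxnb2, -0.078 to 0.098 for Plxna2, -0.093 to 0.15 for Plxna3, -0.15 to 0.044 for Nrp1 and -0.038 to 0.11 for Plxnc1. The cause of these changes was not tested.

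Same-numbered libraries did not deviate together (r = -0.18, -0.091 and -0.13 over genes). Each library correlated least with the one of its own number in the other group. The deviations are from means of 3 libraries, which ties the r values to one another. The check thus cannot tell whether the numbers pair the samples. With the block 4 members (2 of them ligands, both of class 3) had an unadjusted p under 0.05, as had 6.69% of all genes. The median SE of a member's log2 fold change was 0.095, which limits what these 3 libraries per group can show.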

Other observations

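The ratio of 2 members within a library does not depend on how libraries are scaled, and 2 such ratios were read after the values of the members were seen, so they carry no test. Sema3c over Sema3f, in RPKM, was 2.49, 2.31 and 2.51 in trained replicates 1, 2 and 3, against 3.66, 4.15 and 4.01 in untrained replicates 1, 2 and 3. The groups did not overlap. Sema3c had the most negative and Sema3f the most positive log2 fold change of the ligands. Choosing this pair thus favoured groups that lie apart. Both genes encode secreted ligands, and Sema3f acts mainly through neuropilin-2. Nrp2 over Nrp1, in RPKM, was 1.41, 1.41 and 1.28 in trained and 1.48, 1.67 and 1.73 in untrained replicates 1, 2 and 3, and these groups did not overlap either.

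The table also counts antisense genes of Plxna4. Plxna4os1 had 16, 7 and 23 counts in trained replicates 1, 2 and 3, against 12, 14 and 25 counts in the untrained ones, where Plxna4 itself had 959 to 1738 counts. Plxna4os2 had 0, 0 and 2 counts in trained and 0, 1 and 0 counts in untrained libraries, and Plxna4os3 had 0 counts in all 6.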
